A study of Mus musculus with 24 samples.

Results

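The nuclear-encoded subunits of the mitochondrial respiratory chain and ATP synthase were followed in the cortex of 24 mice by bulk RNA sequencing. Members were the protein-coding genes whose symbols belong to the Nduf (a, b, c, s and v), Sdh (a to d), Uqcr, Cox (4 to 8) and Atp5 families. This gave 83 of the 43346 genes in the count table, with 36 in complex I, 4 in complex II, 8 in complex III, 18 in complex IV and 17 in complex V. One complex I subunit gene is left out by the rule and was not analysed here. Complexes were assigned by symbol, so Ndufa4 and Ndufa4l2 stand in complex I, although NDUFA4 protein is now regarded as a component of complex IV. Atp5s and Atp5sl match the symbols but are not regarded as structural subunits of ATP synthase.

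All mice were of the C57BL/6 background and carried 1 copy of Cx3cr1CreER, a tamoxifen-dependent Cre recombinase under the promoter of Cx3cr1, a gene of microglia and other macrophages. The WT line is labelled TREM2-WT+/+ and the R47H line TREM2-R47H+/+, so each carried its TREM2 construct on both alleles; R47H is a variant of the microglial receptor TREM2 associated with Alzheimer's disease risk. Groups of 6 mice were the WT line given corn oil (WT control), the WT line given tamoxifen (WT induced), the R47H line given corn oil (R47H control) and the R47H line given tamoxifen (R47H induced). Per the series text each group held 3 males and 3 females, and their age is not given in the sources. Tamoxifen and induction differ together, and no group with tamoxifen but without Cre was analysed here. The lines were compared as lines: whatever else separates them besides the TREM2 variant cannot be told apart from it.

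Complex I (NADH dehydrogenase) and complex II (succinate dehydrogenase) feed electrons into coenzyme Q, complex III passes them to cytochrome c, and complex IV (cytochrome c oxidase) passes them to oxygen. Complexes I, III and IV pump protons, and complex V (ATP synthase) uses the proton gradient to make ATP, on which firing neurons depend heavily. Most subunits are nuclear genes and are assembled with a few subunits encoded in mitochondrial DNA; several complex IV subunits exist as paired isoforms, one found widely and one found mainly in heart, skeletal muscle, lung or testis.

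Libraries held between 27933505 and 56082520 counts. No library held a count for any of the 37 mitochondrial chromosome genes, and the subunits they encode were not analysed here. The Trem2 row ran from 5.93 to 6.96 CPM (counts per 1000000 of the scaled library total) in WT control, 5.41 to 9.32 in WT induced, 6.62 to 9.08 in R47H control and 6.01 to 7.61 in R47H induced. It was not called in either induction (adjusted p = 0.955 in the WT line and 0.945 in the R47H line), and the sources used here do not say whether reads of the constructs are counted in this row, so group names below are those of the labels. Markers of excitatory neurons, inhibitory neurons, astrocytes, oligodendrocytes and microglia were present in every group. In bulk tissue, fewer cells of a type and less RNA per cell cannot be told apart. Of 15 marker lists, 3 held genes called between the lines. The striatal neuron list (6 of 7 genes tested) had 4 genes lower in the R47H line in control mice and 3 in induced mice; its sum was 923 to 1034 CPM in R47H control against 1008 to 1170 in WT control, and 899 to 1074 in R47H induced against 1095 to 1190 in WT induced. The pericyte list (6 of 6 tested) had 1 gene lower in each, with sums of 135 to 152 against 146 to 161 CPM in control mice and 125 to 138 against 143 to 168 in induced mice. Of 4 parvalbumin interneuron genes, Kcnc1 was lower in induced mice. Choroid plexus markers (5 of 5 tested, 0 called) summed to 12 to 604 CPM over the libraries, with wide overlap of the groups. Their median sum was 153 CPM in WT control and 159 in WT induced, against 367 in R47H control and 304 in R47H induced. All 5 were higher in the R47H line in both treatments, with median log2 fold changes of 0.82 in control and 0.76 in induced mice. The part of these lists in the subunit results was not tested. The counts of Yam1, AY036118 and Lars2 were summed as an rRNA-like share, a name for the sum and not for each gene. It took 11.5% to 24.4% of counts. R47H control held 20.3% ± 2.73 against 15.9% ± 3.18 in WT control (SD, n = 6, exact permutation p = 0.0303, two-sided). R47H induced held 17.0% ± 1.69 against 18.3% ± 3.21 in WT induced (exact permutation p = 0.437). Within the lines, induced against control gave an exact permutation p of 0.0281 in the R47H line and 0.227 in the WT line. An alternative fit took this share as a covariate, and its counts stand beside the line comparisons.

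All members but 1 were expressed. Cox8c, a testis isoform of complex IV, had no count in any of the 24 libraries and was not tested, which left 82 members among 19678 tested genes. Together the 83 members summed to 6418 ± 146 CPM in WT control, 6445 ± 113 in WT induced, 6455 ± 77.1 in R47H control and 6506 ± 113 in R47H induced (SD, n = 6), where CPM is relative to the scaled library total. These sums overlapped between all groups, and their order depends on the scaling: as shares of unscaled counts they were 0.653%, 0.639%, 0.631% and 0.659%. Complex V took the largest sum in each group (2494 to 2527 CPM as group means), followed by complex I (1728 to 1752), complex IV (1048 to 1106), complex III (611 to 619) and complex II (504 to 514).

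Levels between genes were compared per length, as CPM per kilobase of the table's gene length (mean of 24 libraries). For some genes that length is well above the longest coding transcript in GENCODE vM21: 4237 against 1916 bases for Atp5b, where Cox8a has 545 against 550. The orders below hold for the table's lengths only, and other lengths were not tried. Without length, Atp5b stood at 857 CPM and Cox8a at 182. Highest of all was Cox8a, the widely expressed small subunit VIII of complex IV, at 334 CPM per kilobase. Ndufa4 led complex I at 231 CPM per kilobase, and Atp5a1 and Atp5b, the alpha and beta chains that form the catalytic head of ATP synthase, stood at 219 and 202. In complex II, Sdha, the flavoprotein that oxidises succinate, stood at 81.6 CPM per kilobase, and Sdhc, a membrane anchor of the complex, was lowest at 18.5. Complex III was the most even, from Uqcr10 at 65.2 to Uqcrq at 24.4 CPM per kilobase, both small subunits. The lowest tested members were tissue isoforms of complex IV.

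**Figure D1:**
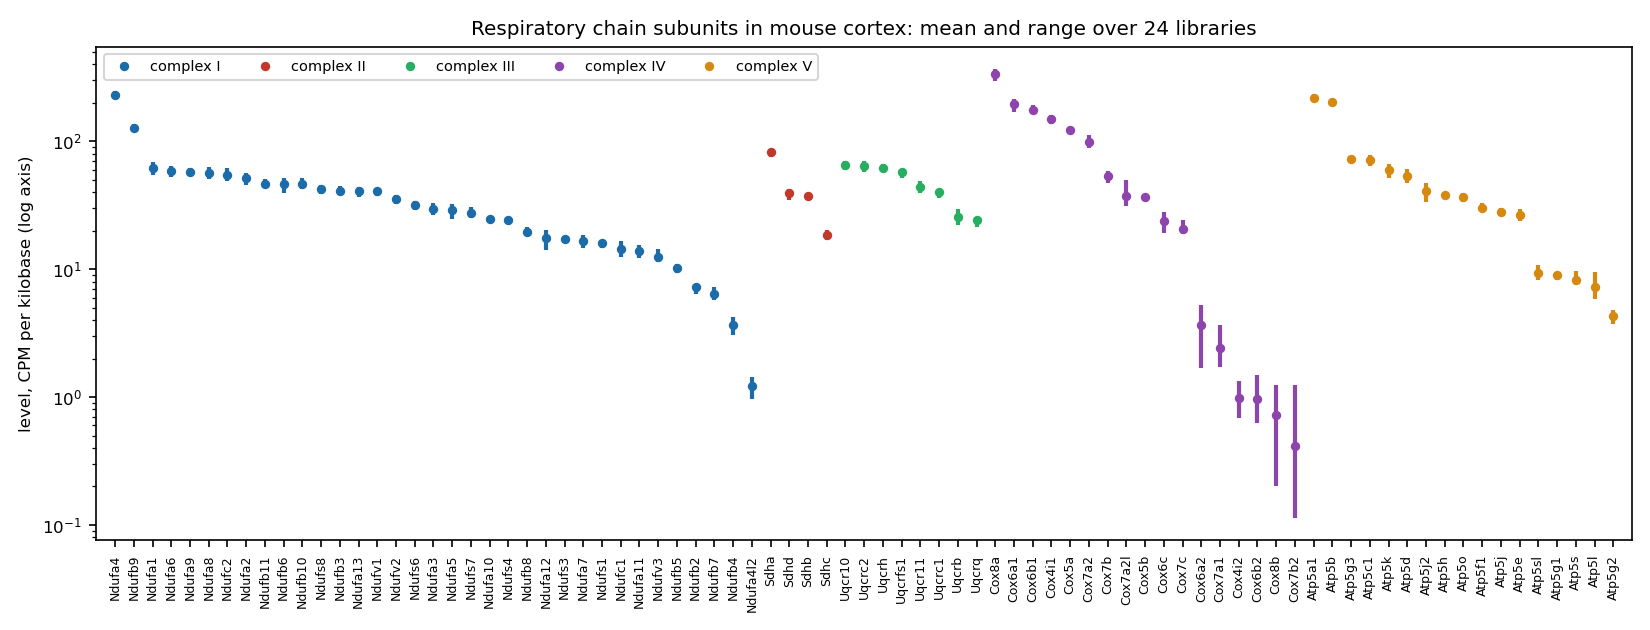
Level of 81 of the 82 tested subunits in CPM per kilobase on a log axis, ordered within each complex; points are means and lines the range over 24 libraries. On the table's gene lengths Cox8a stands highest at 334 CPM per kilobase, and 6 complex IV isoforms lie well under the other complex IV subunits.

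Apart from Cox8c, isoforms found mainly in other tissues were present at low levels in every library. Per kilobase, Cox8a exceeded Cox8b, the heart and muscle isoform, 464-fold on the means (270-fold to 1645-fold over the libraries). Ndufa4 exceeded Ndufa4l2, a paralog induced by hypoxia, 189-fold, and Cox6b1 exceeded Cox6b2, the testis isoform, 181-fold. Cox4i1 exceeded Cox4i2, the lung isoform that also occurs in oxygen-sensing vascular cells, 153-fold, and Cox7b exceeded its paralog Cox7b2 129-fold. The gap was smaller for the muscle isoforms Cox6a2 and Cox7a1: Cox6a1 exceeded Cox6a2 52.9-fold and Cox7a2 exceeded Cox7a1 40.7-fold. All of these ratios kept 1 direction in all 24 libraries. The c-ring of ATP synthase is encoded by 3 genes for the same mature protein, and Atp5g3 exceeded Atp5g1 8.12-fold and Atp5g2 16.7-fold, with library values of 7.48-fold to 8.91-fold and 14.8-fold to 19.2-fold. Without length, they stood at 158 (Atp5g3), 43.8 (Atp5g1) and 7.26 CPM (Atp5g2). In the same order, the ratios rest on table lengths of 2181, 4912 and 1675 bases, where the longest coding transcripts have 723, 4715 and 753. The library ranges do not include this uncertainty of length.

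The isoform pair that lay furthest apart also differed in the bases ahead of its start sites. The following are the 150 bases upstream of the RefSeq start (assembly GRCm38.p6) of Cox8a (minus strand, chr19:7217617-7217766), Cox8b (minus strand, chr7:140900447-140900596) and Cox7a2l (minus strand, chr17:83514334-83514483), the last because its level fell into separate ranges in the R47H line, described below; none of the windows overlaps an annotated exon, and capitals mark each CG pair.
Cox8a: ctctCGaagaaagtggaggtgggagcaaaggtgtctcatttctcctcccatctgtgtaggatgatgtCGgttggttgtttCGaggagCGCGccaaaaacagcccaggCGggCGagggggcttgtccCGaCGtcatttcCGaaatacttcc
Cox8b: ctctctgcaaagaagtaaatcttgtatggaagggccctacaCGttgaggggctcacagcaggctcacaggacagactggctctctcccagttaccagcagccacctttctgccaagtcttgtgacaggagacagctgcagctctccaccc
Cox7a2l: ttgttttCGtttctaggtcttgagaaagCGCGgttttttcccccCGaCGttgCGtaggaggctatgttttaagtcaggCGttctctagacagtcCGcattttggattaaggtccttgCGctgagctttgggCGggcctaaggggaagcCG
The Cox8a stretch holds 10 CG pairs and the Cox8b stretch 1, at the same base composition of 55.3% G and C. The Cox7a2l stretch holds 11.

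RefSeq windows of 300 bases (250 before to 50 after the start) were at hand for 68 of the 83 members. Their median was 19 CG pairs, against 13 over 17492 protein-coding genes. Cox8b had the fewest, with 2, followed by Cox7b with 5, Cox7a1 with 7, Ndufc2 with 8, and Cox6b2 and Cox7b2 with 10 each. Low counts thus occurred in widely expressed subunits as well as in tissue isoforms, and Cox7b had fewer CG pairs than its low paralog. A core of the NRF1 site, GCATGCG, was found on either strand in 10 of 68 windows (14.7%) against 4.5% of all windows; NRF1 is a textbook regulator of respiratory chain genes. The ETS core CCGGAAG, read by GABP, was found in 15 (22.1%) against 11.9%, and the YY1 core ATGGCGG in 9 (13.2%) against 5.44%. TATAAA, the TATA box, was found in 7 (10.3%) against 13.3%. None of these 4 strings contains another, and a match is a description of the letters only. The NRF1, ETS and YY1 strings each hold a CG pair and TATAAA holds none. The windows compared were not matched for their number of CG pairs. Among the 11 subunits called between the lines and Cox8b, where a window was at hand, Ndufa8 had the NRF1 string, Ndufb6, Cox6b1 and Cox8a the ETS string, Atp5l both and a TATA box, and Cox8b a TATA box. Ndufb4, Ndufb8, Cox7a2l and Atp5j2 had none of the 4 strings.

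Subunit levels varied little between mice of a group. The median coefficient of variation within a group was 4.18% for the 72 members at 10 CPM or more, against 5.2% for the 10103 tested genes at that level. Sdha was among the steadiest at 1.96%, Cox5b stood at 2.39% and Atp5b at 2.54%. Among well expressed subunits Cox7a2l was the most variable of those named, at 10.1%. The low isoforms varied most, with 44.5% for Cox7b2 and 35.9% for Cox8b.

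No subunit was called in either induction or in the difference between them. In the WT line, 0 of 82 members passed an adjusted p of 0.05 by edgeR (0% of all tested genes), 2 had an unadjusted p under 0.05 (2.44% against 7.85% of all genes), and the median log2 fold change of the members was 0.008 against 0.001 for all genes. The R47H line gave 0 of 82 (0% of all genes), 1 at unadjusted p under 0.05 (1.22% against 5.11%) and a median of 0.004. The difference of inductions gave 0 of 82 (0%), 2 at unadjusted p under 0.05 and a median of -0.0002. DESeq2 and limma-voom also called 0 members in all 3, while over all genes DESeq2 called 10, 2 and 3 and limma-voom 0. No member had all induced libraries beyond all control libraries of its line, against 0.234% of all genes in the WT line and 0.34% in the R47H line. By complex, the members' medians lay between 0.001 and 0.016 in the WT line and between -0.01 and 0.01 in the R47H line.

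The members with the lowest p-values in these comparisons moved by small amounts. Ndufc2, a membrane-arm subunit of complex I, ran from 36.8 to 43.3 CPM (median 39.8) in WT control, 41.4 to 44.5 (42.6) in WT induced, 38.1 to 46.4 (40.3) in R47H control and 36.6 to 45.2 (38.3) in R47H induced. The WT groups overlapped, and its log2 fold change was 0.11 (SE 0.05, adjusted p = 0.585) in the WT line, with a difference of inductions of -0.17 (SE 0.07, adjusted p = 0.601). Ndufb9, an accessory subunit of complex I, gave 0.07 (SE 0.03, adjusted p = 0.949) in the R47H line and a difference of inductions of 0.08. Ndufa5, an accessory subunit of the peripheral arm, gave 0.10 (SE 0.05, adjusted p = 0.97) in the R47H line, and Ndufb11, a membrane-arm subunit, gave a difference of inductions of 0.09 (SE 0.05). Cox6c, a small complex IV subunit, gave 0.10 (SE 0.05) in the WT line. Wider values came from low isoforms with wide errors: Cox6a2 at -0.35 (SE 0.16) and Cox4i2 at 0.24 (SE 0.16) in the WT line, Cox6b2 at -0.31 (SE 0.18) and Cox7b2 at 0.46 (SE 0.42) in the R47H line, and -0.41 (SE 0.23) for Cox4i2 and 0.71 (SE 0.55) for Cox7b2 in the difference of inductions.

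**Figure D2:**
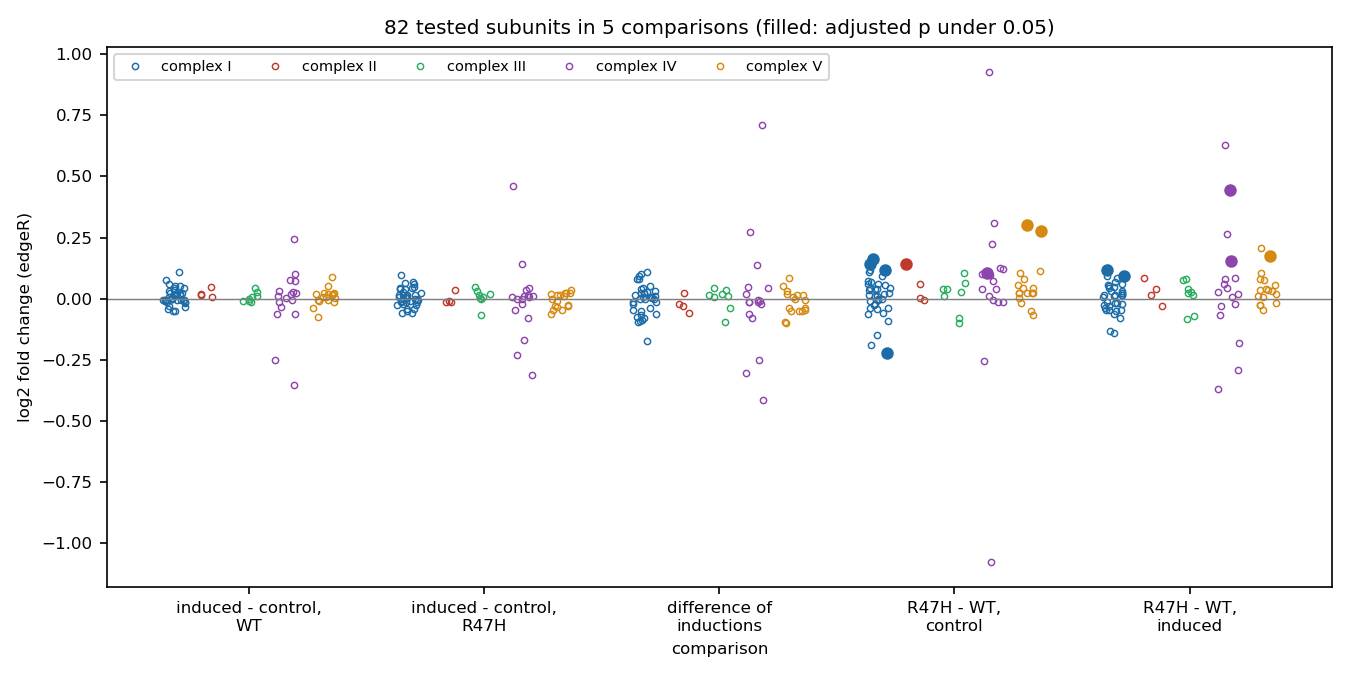
Log2 fold change of each of the 82 tested subunits in the 5 comparisons, coloured by complex; filled points have an adjusted p under 0.05 by edgeR's quasi-likelihood test. Filled points are absent from both inductions and their difference, and number 8 between the lines in control mice and 5 in induced mice.

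Between the lines without tamoxifen, 8 of the 82 subunits differed, 7 higher and 1 lower in the R47H line. That is 9.76%, where 5.74% of all tested genes were called (2.69% higher and 3.04% lower). At unadjusted p under 0.05 stood 25 members (30.5% against 20.5% of all genes), 58 of 82 fold changes were above 0, and the members' median was 0.03 against 0.00 for all genes. By complex, 3 of 36 complex I members rose and 1 fell, 1 of 4 in complex II rose, 0 of 8 in complex III was called, and 1 of 17 tested in complex IV and 2 of 17 in complex V rose. In 6 members all R47H control libraries lay above all WT control libraries (3.18% of all genes had such groups in either direction), and in none below. These directions depend on the scaling. With library totals in place of scaled totals, the median of all genes moved to -0.06, 191 genes were called higher and 1142 lower, and of the members 1 was higher (Atp5j2) and 4 lower (Ndufb4, Atp5b and Ndufa5 among them). When the rRNA-like share entered as covariate, 2 members stayed called, Atp5j2 and Ndufa8 (2.29% of all genes).

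Complex V held the widest of these differences. Atp5j2, the f subunit in the membrane part of ATP synthase, ran from 42.8 to 47.9 CPM (median 45.1) in WT control and from 50.5 to 58.5 (median 54.1) in R47H control. All 6 R47H libraries were above all 6 WT libraries, and the log2 fold change was 0.28 (SE 0.04, adjusted p = 0.000252). Atp5l, the g subunit of the same membrane part, ran from 2.96 to 3.42 CPM (median 3.35) in WT control and from 3.65 to 4.87 (median 3.99) in R47H control. These groups did not overlap either, and Atp5l differed by 0.30 (SE 0.08, adjusted p = 0.015). Of the 50-base words in its transcript, 68.5% also occur in other genes elsewhere, so its count is uncertain. The catalytic chains were not called: Atp5a1 gave -0.05 (SE 0.03), Atp5b -0.07 (SE 0.03) and Atp5c1, the central stalk, 0.08 (SE 0.03).

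In complex I, Ndufa8, an accessory subunit, ran from 43.3 to 47.6 CPM (median 46.7) in WT control and from 49.7 to 52.1 (median 51.8) in R47H control. The groups were apart in every library, with a log2 fold change of 0.16 (SE 0.03, adjusted p = 0.00315). Ndufb8, a membrane-arm subunit whose protein is widely used as a marker of assembled complex I, ran from 58.3 to 60.4 CPM (median 58.5) and from 61.0 to 66.4 (median 64.1), again without overlap, for 0.12 (SE 0.03, adjusted p = 0.0311). Ndufb6, in the membrane arm as well, ran from 26.2 to 30.9 CPM (median 29.1) and from 30.7 to 33.5 (median 31.7), overlapping at the edges, for 0.14 (SE 0.04, adjusted p = 0.0498). Ndufb4, another membrane-arm subunit, was the 1 member called lower: it ran from 4.16 to 4.97 CPM (median 4.49) in WT control and from 3.61 to 4.35 (median 3.85) in R47H control, for -0.22 (SE 0.06, adjusted p = 0.0387). Its groups overlapped, and 37% of its 50-base words occur in other genes. Core subunits of the path from NADH to coenzyme Q that are reported here were not called, with log2 fold changes of -0.02 (Ndufs1), 0.01 (Ndufs3), 0.00 (Ndufs7), 0.04 (Ndufs8), -0.01 (Ndufv1) and 0.00 (Ndufv2).

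Sdhc was the called member of complex II. Its levels were 55.3 to 57.9 CPM (median 56.7) in WT control and 58.5 to 64.8 (median 62.9) in R47H control, without overlap, for a log2 fold change of 0.14 (SE 0.03, adjusted p = 0.00497). Its partners gave 0.00 (Sdha), 0.06 (Sdhb, the iron-sulfur subunit) and -0.01 (Sdhd, the other anchor), none called. In complex IV, Cox6b1, which links the monomers of the complex IV dimer, ran from 81.9 to 87.7 CPM (median 85.0) in WT control and from 88.3 to 97.3 (median 89.9) in R47H control. Again the groups lay apart, with a log2 fold change of 0.11 (SE 0.03, adjusted p = 0.0235). The nuclear core neighbours Cox4i1, Cox5a and Cox5b gave 0.04, 0.01 and -0.01. In complex III, the core proteins Uqcrc1 and Uqcrc2 gave -0.08 and 0.04, and Uqcrfs1, the Rieske iron-sulfur protein, 0.04, none called.

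**Figure D3:**
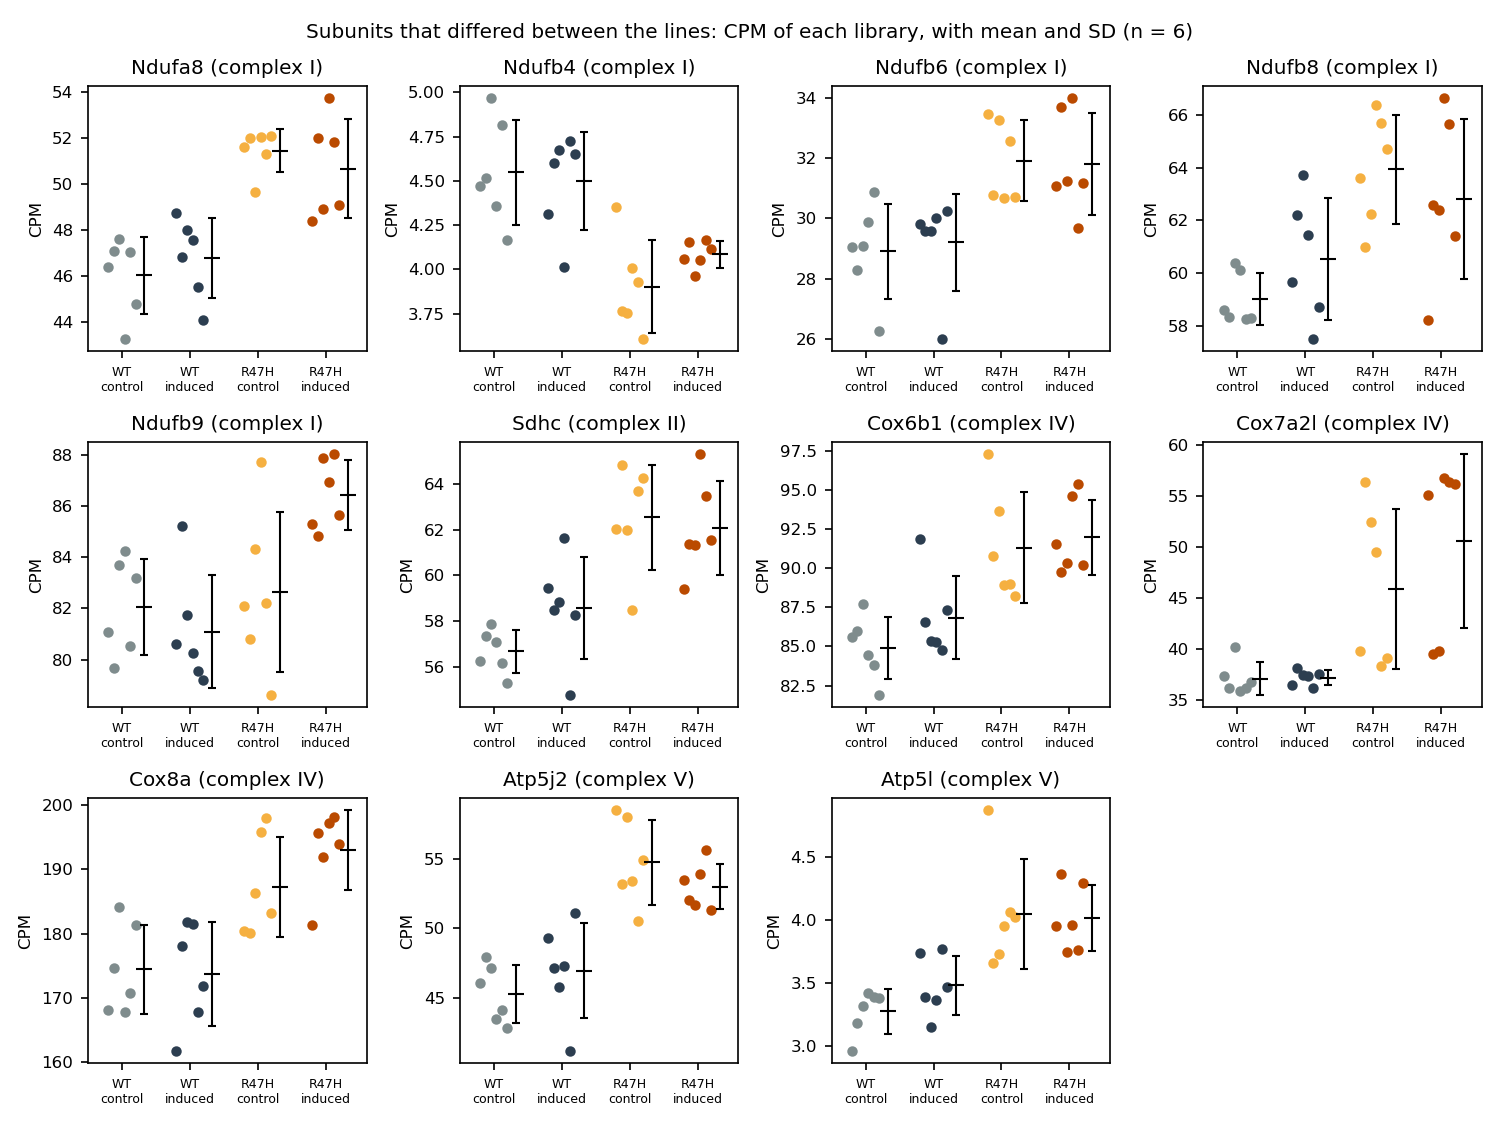
CPM of the 11 subunits called between the lines in either treatment; each point is 1 library, and the bar beside each group gives the mean and SD of 6 libraries. Axes do not start at 0. Atp5j2 is above 50 CPM in all 12 R47H libraries, and Cox7a2l falls into separate ranges in the R47H line.

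In mice given tamoxifen, 5 of 82 subunits differed between the lines, all higher in the R47H line. That is 6.1%, close to the 5.8% of all tested genes (2.59% higher and 3.22% lower); 20 members had an unadjusted p under 0.05 (24.4% against 20.1%), and the members' median was 0.02 against 0.00. By complex, 2 of 36 in complex I, 0 of 4 in complex II, 0 of 8 in complex III, 2 of 17 in complex IV and 1 of 17 in complex V were called. In 3 members (Atp5j2, Cox7a2l and Uqcrfs1) all R47H induced libraries lay above all WT induced libraries, against 3.25% of all genes in either direction. With library totals 4 members were called, also all higher, while the genes called over the table became 507 higher and 288 lower. When the rRNA-like share entered as covariate, 5 members were called (5.25% of all genes), with Ndufb6 gained and Ndufb9 lost.

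Atp5j2 ran from 41.1 to 51.1 CPM (median 47.2) in WT induced and from 51.3 to 55.6 (median 52.7) in R47H induced, for 0.17 (SE 0.04, adjusted p = 0.0149). Ndufa8 ran from 44.1 to 48.8 CPM (median 47.2) and from 48.4 to 53.7 (median 50.5), for 0.12 (SE 0.03, adjusted p = 0.0329). The groups of Atp5j2 only just cleared each other, and those of Ndufa8 overlapped. Cox8a ran from 162 to 182 CPM (median 175) in WT induced and from 181 to 198 (median 195) in R47H induced. A single low R47H library made these groups touch, and the log2 fold change was 0.15 (SE 0.03, adjusted p = 0.00645). In control mice Cox8a gave 0.10 (SE 0.03, adjusted p = 0.0705), in the same direction but not called by edgeR. Ndufb9 ran from 79.2 to 85.2 CPM (median 80.4) and from 84.8 to 88.0 (median 86.3), for 0.09 (SE 0.03, adjusted p = 0.0372). A single high WT library reached into the R47H range. In control mice the same subunit gave 0.01 (SE 0.03, adjusted p = 0.883).

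Cox7a2l showed the widest called difference, and its R47H libraries fell into separate ranges. Its protein, also known as SCAF1, has been described as joining complex III to complex IV in supercomplexes. Neither the protein nor supercomplexes were measured in these mice. The 12 WT libraries ran from 35.8 to 40.2 CPM. In R47H control the 6 libraries stood at 39.7, 56.3, 52.4, 49.5, 38.3 and 39.0 CPM, and in R47H induced at 55.0, 39.5, 39.8, 56.8, 56.3 and 56.1. No library fell between 40.2 and 49.5 CPM: 3 R47H control and 4 R47H induced libraries were above that gap, and the other 5 of the R47H line, at 38.3 to 39.8, were above 11 of the 12 WT libraries, which reached 38.1, and under the WT control library at 40.2. Those above it came from 3 males and 4 females by their Y-linked and Xist counts. In R47H control all libraries above the gap were female and all below it male. In R47H induced every male was above the gap, and the libraries below it were female. The part of sex in this pattern was not tested. Since the pattern lies within the R47H groups, a group mean stands for neither range. The log2 fold change was 0.45 (SE 0.10, adjusted p = 0.0095) in induced mice and 0.31 (SE 0.10, adjusted p = 0.0722) in control mice. Of its 50-base words, 17.7% occur in 1 other gene.

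The comparisons in control and in induced mice share no library. Atp5j2 and Ndufa8 were called in both, which is 2 of 8 and 2 of 5, with 11 members called in either. Over all genes, 484 were called in both of 1129 and 1142. The sign was the same in both for 68 of 82 members (82.9%) against 64.3% of all tested genes, as a description with no test. The other 6 members called in control mice had the same sign in induced mice: 0.21 for Atp5l (adjusted p = 0.102), 0.12 for Ndufb6 (0.095), 0.08 for Sdhc (0.102), 0.08 for Cox6b1 (0.0777), 0.05 for Ndufb8 (0.376) and -0.14 for Ndufb4 (0.214). No subunit passed the test of the difference of inductions, so no line difference of a subunit was shown to depend on tamoxifen.

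**Figure D4:**
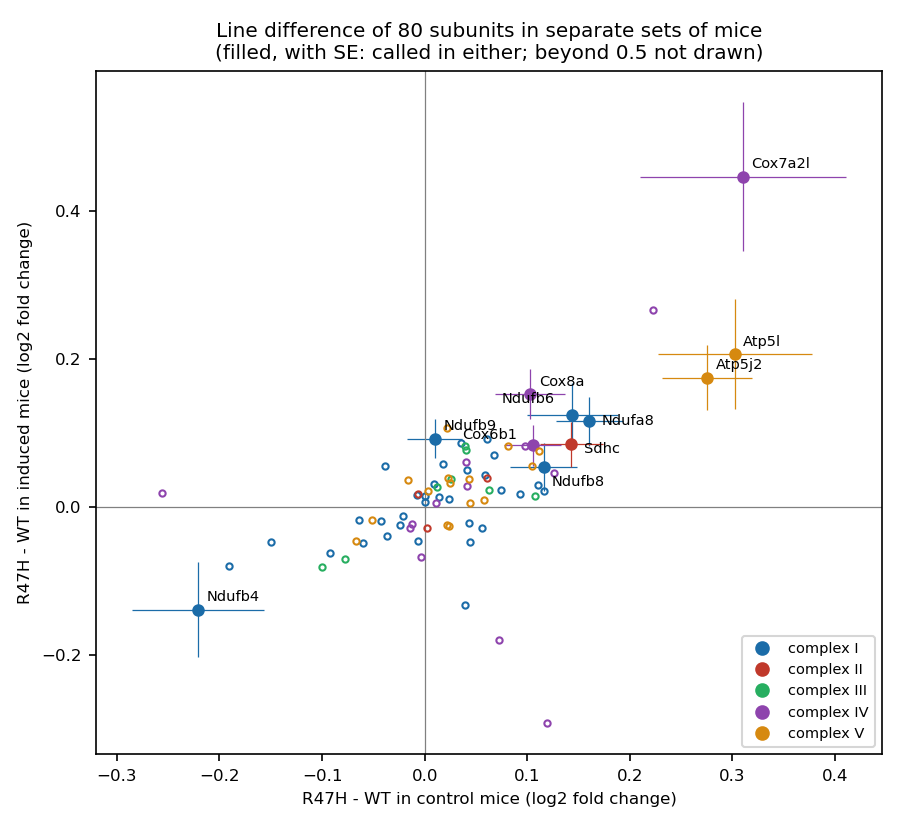
Log2 fold change of R47H against WT in control mice (horizontal) and in induced mice (vertical) for 80 subunits; Cox7b2 and Cox8b lie beyond 0.5 and are not drawn. Filled points with SE bars are the 11 subunits called in either; of all 82, 68 have the same sign on both axes.

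Complex IV summed to 1048 ± 18.3 CPM in WT control, 1058 ± 19.4 in WT induced, 1093 ± 17.9 in R47H control and 1106 ± 21.7 in R47H induced (SD, n = 6). The lowest and highest libraries were 1026 and 1082 in WT control and 1070 and 1116 in R47H control, and 1033 and 1082 against 1072 and 1130 in the induced groups, so the lines overlapped in both. As a share of unscaled counts, complex IV took 0.107% in both WT control and R47H control, and 0.105% in WT induced against 0.112% in R47H induced, so the difference in control mice rests on the scaling. The unscaled totals include the rRNA-like share, at 20.3% of counts in R47H control against 15.9% in WT control. The part of that share in these values was not tested. Complex V sums were 2527 ± 71.4, 2527 ± 50.4, 2494 ± 43.2 and 2517 ± 52.5 CPM in the same order, with wide overlap. Its unscaled shares were 0.257%, 0.251%, 0.244% and 0.255%, with the R47H line under WT in control mice and above it in induced mice. Atp5a1 and Atp5b make up much of that sum, and both had negative fold changes between the lines.

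The low isoforms gave the extreme fold changes between the lines, and none was called. Cox8b ran from 0.127 to 0.259 CPM (median 0.166) in WT control and from 0.183 to 0.451 (median 0.388) in R47H control, overlapping, for 0.93 (SE 0.31, adjusted p = 0.072). In induced mice it ran from 0.0734 to 0.372 CPM and from 0.202 to 0.426, for 0.63 (SE 0.31, adjusted p = 0.253). Cox7b2 ran from 0.0864 to 0.673 CPM in WT control and from 0.0617 to 0.276 in R47H control, for -1.08 (SE 0.40, adjusted p = 0.108), and gave -0.37 (SE 0.38) in induced mice. The others gave, in control and induced mice, 0.12 and -0.29 (Cox4i2), -0.26 and 0.02 (Cox6a2), 0.07 and -0.18 (Cox6b2), 0.22 and 0.27 (Cox7a1) and -0.19 and -0.08 (Ndufa4l2). Their widely expressed partners gave 0.04 and 0.03 for Cox4i1, 0.04 and 0.06 for Cox6a1, 0.10 and 0.08 for Cox7a2, and 0.02 and 0.06 for Ndufa4. The c-ring genes gave 0.02 and -0.03 (Atp5g1), 0.10 and 0.05 (Atp5g2), and 0.00 and 0.02 (Atp5g3), none called.

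Called members were also set beside the genes around them and the genes that share their reads. Of the other tested genes within 5 Mb of Sdhc (chr1:171127165-171150603), 30 of 116 were called in control mice (25.9%) and 27 in induced mice (23.3%), against 5.74% and 5.8% overall. The share in control mice was 14.2% around Atp5l (chr9:44913250-44920742) and 13.9% around Atp5j2 (chr5:145183698-145192062), and 5.66% and 5.22% in induced mice. Around the other 8 it lay between 1.94% and 8.82% in control mice and between 1.94% and 9.46% in induced mice. Reads that an overlapping gene could share made up 34.1% of the 50-base words of Ndufb6 and 23.4% of those of Ndufb9, and without strand such reads cannot be assigned. Atp5j2, Ndufa8, Sdhc, Cox6b1, Ndufb8 and Cox8a had 5% or less of their words in any other gene. The part of neighbours and shared reads in the line differences was not tested.

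Other genes of mitochondrial energy supply were not called in either induction or in the difference of inductions, in any of the lists. Between the lines in control mice, where 5.74% of all tested genes were called, assembly factors of the respiratory complexes had 3 of 51 higher and 4 lower, carriers of electrons and coenzyme Q synthesis 1 of 18 higher (Coq5), the TCA cycle and pyruvate dehydrogenase 2 of 21 higher and 1 lower, and mitochondrial protein import 1 of 29 higher (Timm22). The mitochondrial ribosome had 2 of 77 higher and 1 lower, adenine nucleotide and phosphate carriers 1 of 8 higher and 1 lower, glycolysis 0 of 19 higher and 1 lower (Ldha), and both the biogenesis regulators (19 tested) and the antioxidant and uncoupling genes (13 tested) 0. In induced mice, where 5.8% of all tested genes were called, assembly factors had 1 of 51 higher and 1 lower, the TCA cycle 1 of 21 in each direction, import 1 of 29 higher (Gfer), the mitochondrial ribosome 3 of 77 higher and 1 lower, and carriers of nucleotides and phosphate 1 of 8 higher. Biogenesis regulators had 1 of 19 higher, Ppargc1a, the coactivator that drives mitochondrial biogenesis, and antioxidant genes 2 of 13 higher, Prdx3, a mitochondrial peroxidase, and Slc25a27, a brain uncoupling protein. Glycolysis and coenzyme Q genes had 0. List medians lay between -0.03 and 0.04 in both line comparisons. Cytosolic ribosomal proteins, set beside them as another large group of short, abundant transcripts, had 6 of 83 higher and 0 lower in control mice and 2 higher and 2 lower in induced mice, with medians of 0.05 and 0.02.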

How the data were processed

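The authors deposited whole-number read counts per gene for 24 libraries with no normalization. The submitters' processing notes list alignment with STAR 2.5.2b, counting with featureCounts 1.5.1 and build mm10; the sources used here do not name the counting options, strand setting or annotation. Per the labels' protocols, poly-A RNA was prepared with the TruSeq kit v2, which does not mark strand. Genotype and treatment labels gave the groups; replicate numbers follow accession order and pair nothing.

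Genes passing filterByExpr (19678) were scaled by TMM and fitted together over 4 groups in edgeR 4.0.16 (R 4.3.3, robust quasi-likelihood F-test, 20 residual degrees of freedom), with Benjamini-Hochberg adjustment over all tested genes of each comparison and calls at an adjusted p under 0.05. The steps were tested on simulated data. The 60 library pairs within groups differed by more than sampling noise (chi-square per degree of freedom 4.6 to 67.8). Alternatives were other scalings, filters and thresholds, DESeq2 1.42.0, limma-voom (limma 3.58.1), covariates and left-out libraries. Shared reads were judged from 50-base words of GENCODE vM21 transcripts; promoters are RefSeq's (GRCm38.p6).

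Members and lists were chosen with earlier results of these data known. Genes named are the called members, the 3 lowest p-values and the extremes of each comparison, the core subunits (1 is not reported here), the tissue isoforms and the highest and lowest per kilobase of each complex; others (Cox7b, Atp5s and Atp5sl) were chosen after their values were seen.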

Additional observations from a re-analysis of the deposited data

Results flagged for a closer look

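For the 49 named members, the highest or lowest library of each group of 6 was set against the others, and stood apart where its gap to the nearest exceeded 0.625 of the group's range. Of 192 groups screened, 15 did; chance alone gives about 1 in 20 groups, or 9.6. In R47H induced replicate 1, the library with the lowest total count, 2 subunits were low: Atp5b at 800.5 CPM against 850.5 to 857 in the others, and Cox8a at 181 against 192 to 198. In R47H control replicate 1, the library with the highest rRNA-like share, 3 were high: Atp5l at 4.87 CPM against 3.65 to 4.06, Ndufa4l2 at 1.38 against 0.987 to 1.11, and Ndufc2 at 46.4 against 38.1 to 40.7. Ndufa8 was low in R47H control replicate 3 at 49.7 CPM (others 51.3 to 52.1), and Ndufs3 in R47H induced replicate 5 at 35.8 (37.7 to 38.8).

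In the WT line, Cox4i2 was high at 1.06 CPM (others 0.571 to 0.719) and Uqcrc1 low at 159.5 (169 to 175) in WT control replicate 1. Cox7a2l was high at 40.2 CPM (35.8 to 37.3) and Ndufb11 at 46.2 (41.9 to 42.8) in WT control replicate 3, and Ndufa4l2 was low at 0.942 (1.24 to 1.38) in WT control replicate 5. In WT induced, Cox5b was high at 59.5 CPM in replicate 3 (56.4 to 57.3), Cox6b1 high at 91.9 in replicate 1 (84.7 to 87.3) and Ndufb6 low at 26.0 in replicate 5 (29.6 to 30.2). The calls of Atp5l in control mice and of Cox8a in induced mice held in all 24 fits that left out 1 library, with log2 fold changes of 0.25 to 0.33 and 0.13 to 0.17.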

How the results depend on the processing

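The counts of 0 in both inductions and their difference held under every alternative run. Between the lines in control mice, where 8 members were called, the count was 5 with library totals, 4 with all genes that had at least 1 count, 2 with the rRNA-like share as covariate and 14 at an adjusted p under 0.1; leaving out 1 library gave 5 to 10, with 5 without WT control replicate 6 or R47H control replicate 3. In induced mice, where 5 were called, the count was 3 with all genes that had at least 1 count and 3 with only the groups compared, and 3 to 6 with 1 library left out (3 without WT induced replicate 5 or 6, or R47H induced replicate 4 or 5). Library totals moved the members' median to -0.0316 and 0.0568 in the WT and R47H inductions, 0.0923 in their difference, and -0.0295 and 0.0532 between the lines in control and induced mice. With 1 library left out these medians ran from -0.002 to 0.02, -0.004 to 0.01, -0.02 to 0.006, 0.02 to 0.04 and 0.009 to 0.03. The line difference of Ndufb9 in control mice turned to -0.0496 with library totals and -0.0081 without R47H control replicate 4, and reached 0.0265 without R47H control replicate 6. Atp5j2 kept both calls, and Cox7a2l and Cox8a theirs in induced mice, in 9 other settings and all 24 fits with 1 library left out. Among the fits with 1 library left out, Ndufb6 lost its call in 12 of 24, Ndufb9 in 9, Ndufb4 in 8, Ndufb8 in 7, Ndufa8 in induced mice in 6 and Cox6b1 in 3. The cause of these changes was not tested. No paired analysis was possible because the labels give no replicate numbers. Members near 0.1 CPM rest on few counts, and their errors are wide.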
